A study of Mus musculus with 6 samples.

Results

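The interferon response genes examined here were 47 genes chosen by name for their place in interferon signalling, out of 55450 genes counted in mouse kidney. They comprised 6 receptor subunits and kinases, 7 transcription factors, 8 guanylate-binding proteins, 4 immunity-related GTPases, 3 sensors of cytoplasmic RNA, 17 antiviral effectors and 2 feedback inhibitors. Kidney mRNA was sequenced from 3 control mice (day 0) and 3 mice of a hyperuricemia-related chronic kidney disease model (day 21), and a single comparison, day 21 against day 0, follows from this design. All 6 were wild type C57BL/6J males bought at 7 weeks of age and kept for 1 week before use. The controls were labelled as given 20% PEG (polyethylene glycol, a vehicle). The day 21 mice received adenine (0.16 g/kg) together with potassium oxonate (2.4 g/kg), which blocks the breakdown of uric acid, by gavage every day. The sources used here do not settle whether the controls were sampled at the start or after the vehicle had been given for as long. If at the start, gavage and age cannot be told apart from the treatment, and in either case the effects of the 2 agents cannot be told apart. Libraries held 10963849 to 14256556 counts at day 0 and 12662200 to 14333311 at day 21, so that 3 counts stood for 0.179 to 0.309 CPM (counts per library scaled to a common size with edgeR's TMM factors, which set most genes level between mice). The paper states that each kidney was divided for different uses, so the RNA came from unsorted kidney tissue. In such tissue fewer cells of a type and less RNA per cell cannot be told apart.

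Interferons are secreted proteins by which cells warn their neighbours of infection or damage. Type I interferons bind a receptor made of Ifnar1 and Ifnar2, and interferon gamma binds one made of Ifngr1 and Ifngr2, and both receptors act through Janus kinases on STAT and IRF transcription factors. A complex that holds Stat2 and Irf9 binds the interferon-stimulated response element (ISRE), whereas STAT dimers formed after interferon gamma bind the gamma-activated site (GAS). In kidney such genes are known from viral, autoimmune and ischemic injury, in resident epithelium as well as in leukocytes.

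The promoters of the members were read first, in search of the ISRE and GAS letters. RefSeq promoter windows of 300 bases, from 250 before to 50 after the annotated start (build GRCm38.p6), were at hand for 35 of the 47 members. The missing ones were Gbp4, Gbp6, Gbp8, Gbp9, Iigp1, Dhx58, Mx1, Mx2, Oas2, Rtp4, Parp14 and Usp18. An ISRE was searched on both strands as GAAA and again GAAA with any 2 bases between them (TTTC and TTTC on the other strand), and a GAS as TTCNNNGAA, which reads the same on both. The ISRE letters occurred in 18 of 35 members (51.4%) and in 3.99% of all 27025 genes with a window. With a C required after the later GAAA they occurred in 14 members (40%) and in 0.944% of all genes. The GAS letters occurred in 14 members (40%) and in 9.55% of all genes, and the stricter TTCCNGGAA in 5 members (14.3%) and 1.35% of all genes. Both elements were present in 7 members and neither in 10. Because the genes were picked for their place in interferon signalling, many of them as known targets, these shares describe the list.

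The windows with an ISRE that belonged to the members with the largest changes are shown with up to 20 bases on each side, together with those of Socs1 and Stat2, an inhibitor and an activator of the same pathway. Capitals mark the ISRE letters. Each is written along its gene, 5′ to 3′. The Isg15 stretch lies at chr4:156200867-156200916 (minus strand, 98 to 49 bases before the start). Ifit1 is at chr19:34640765-34640814 (plus, 124 to 75 before), Oas1a at chr5:120907526-120907565 (minus, 40 to 1 before) and Gbp3 at chr3:142559979-142560028 (plus, 65 to 16 before). Ifit3 is at chr19:34583353-34583402 (plus, 176 to 127 before), Socs1 at chr16:10785590-10785639 (minus, 103 to 54 before) and Stat2 at chr10:128270256-128270305 (plus, 242 to 193 before). The Ifit3 window holds another ISRE, at 34583407 to 34583416, beyond the stretch shown.
Isg15: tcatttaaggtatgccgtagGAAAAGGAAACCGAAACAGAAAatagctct
Ifit1: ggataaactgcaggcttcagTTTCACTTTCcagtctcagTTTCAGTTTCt
Oas1a: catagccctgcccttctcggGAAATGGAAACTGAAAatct
Gbp3: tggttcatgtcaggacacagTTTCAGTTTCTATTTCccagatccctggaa
Ifit3: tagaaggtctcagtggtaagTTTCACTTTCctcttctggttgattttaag
Socs1: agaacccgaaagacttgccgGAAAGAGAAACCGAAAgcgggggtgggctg
Stat2: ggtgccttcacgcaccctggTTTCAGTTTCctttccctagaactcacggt

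In 5 members a GAS began within 50 bases of an ISRE, and these stretches are shown because both elements stand close together in them. Capitals mark both sets of letters, which in Bst2 share bases. Bst2 lies at chr8:71537573-71537628 (minus strand, 156 to 101 bases before the start) and Gbp7 at chr3:142530229-142530312 (plus, 107 to 24 before). Irgm2 is at chr11:58214882-58214942 (plus, 95 to 35 before), Igtp at chr11:58199491-58199551 (plus, 65 to 5 before) and Irf2 at chr8:46739495-46739549 (plus, 250 to 196 before). The Igtp and Irgm2 stretches, from neighbouring genes with overlapping annotations, were the same at 59 of 61 bases.
Bst2: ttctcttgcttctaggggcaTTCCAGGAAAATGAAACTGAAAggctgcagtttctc
Gbp7: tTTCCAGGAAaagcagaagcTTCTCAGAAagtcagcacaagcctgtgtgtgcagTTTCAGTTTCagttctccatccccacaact
Irgm2: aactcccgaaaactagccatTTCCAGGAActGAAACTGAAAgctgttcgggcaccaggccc
Igtp: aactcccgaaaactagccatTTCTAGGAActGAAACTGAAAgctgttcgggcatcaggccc
Irf2: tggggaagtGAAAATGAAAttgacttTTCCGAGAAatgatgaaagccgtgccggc

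At day 21, 43 of the 47 members were higher than at day 0 and none was lower, in the quasi-likelihood test of edgeR (Benjamini-Hochberg adjusted over the 16592 genes tested). A gene was called where its adjusted p stayed below 0.05 and it changed more than 1.5-fold. Over all genes tested, 19.6% were called higher and 15.5% lower. All 47 members passed the filter on low counts, and 0 had a log2 fold change below 0, so that none was lower at an unadjusted p or in DESeq2 or limma-voom either. The 4 members not called were Jak1, Jak2, Irf2 and Irf5. Over all 47 members the median log2 fold change was 1.98 (range 0.06 to 4.21), beside 0.03 over all genes. In 45 members all day 21 mice lay above all day 0 mice, as in 30.7% of all genes, and the exceptions were Jak1 and Rsad2. Added up, the members took 0.0766% to 0.0918% of the counts at day 0 and 0.344% to 0.45% at day 21.

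**Figure D1:**
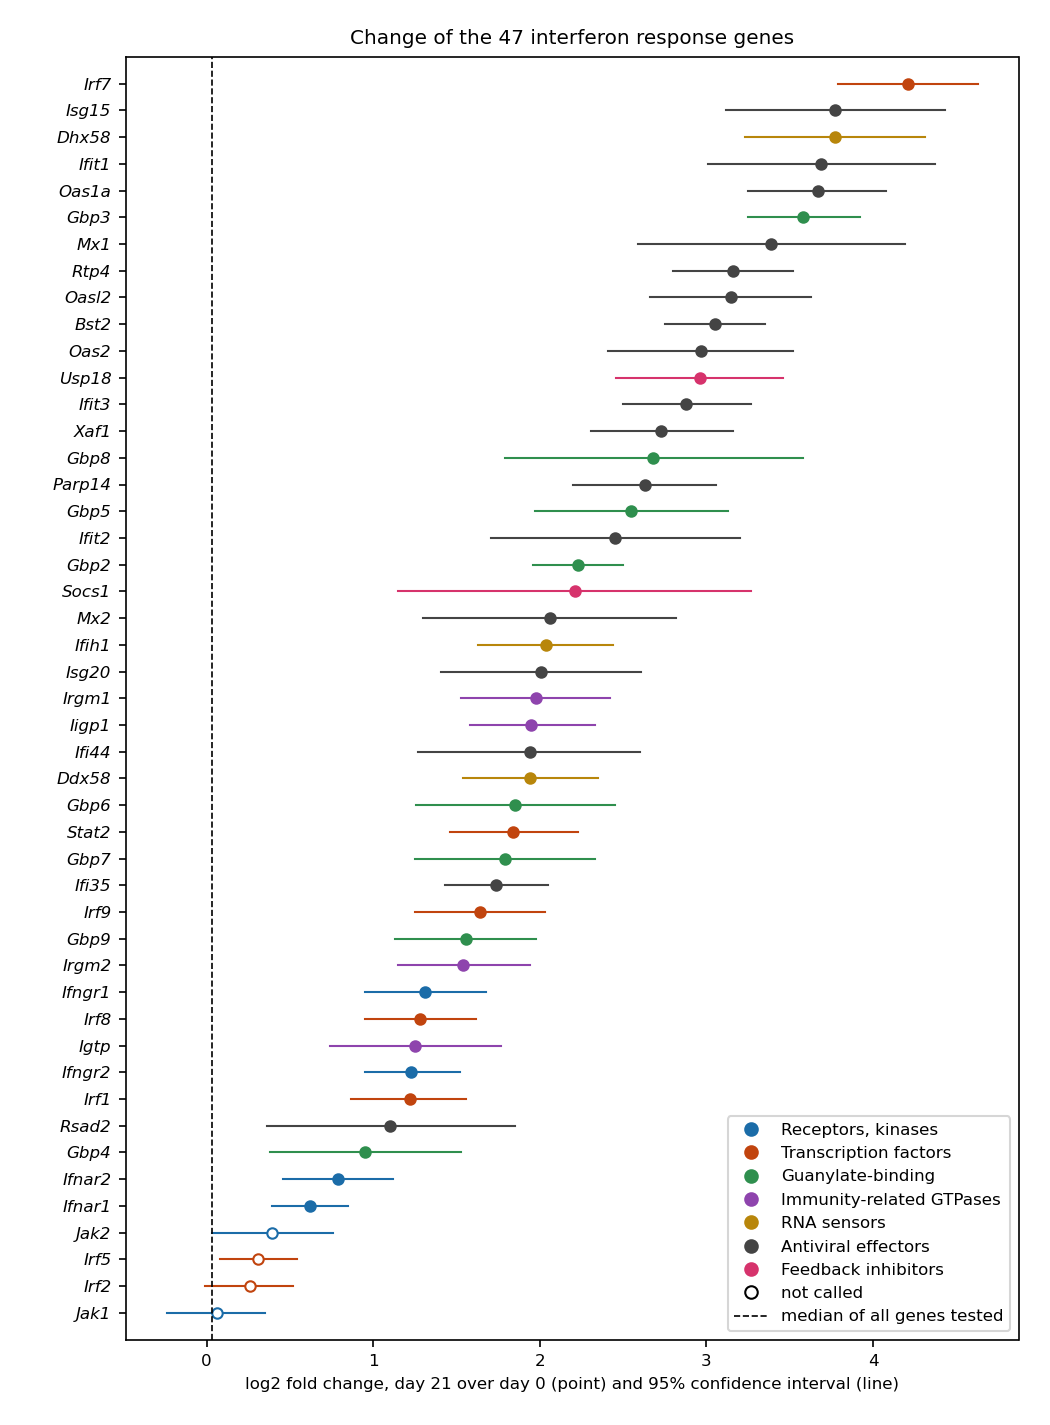
Log2 fold change of each of the 47 members (day 21 against day 0, edgeR) as a point with its 95% confidence interval as a line, sorted by size and coloured by role. Open points mark the members not called, and the dashed line the median of all genes. The receptors and kinases sit between 0.06 and 1.31, and the 17 antiviral effectors between 1.10 and 3.77.

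The receptor subunits rose, and Jak1 and Jak2, the Janus kinases among the members, did not pass the test. Ifngr1 (ENSMUSG00000020009.13), the ligand-binding chain of the interferon gamma receptor, stood at 56.5, 40.6 and 34.5 CPM in the day 0 mice and at 103, 110 and 114 in the day 21 mice. All day 21 mice were above all controls, a log2 fold change of 1.31 ± 0.17 (SE, n = 3 per group, edgeR adjusted p = 0.00013). Its partner Ifngr2 stood at 37.5, 28.2 and 30 CPM against 76.3, 77.6 and 71.1, again without overlap (1.23 ± 0.13, edgeR adjusted p = 3.8e-05). For the type I receptor, Ifnar1 was at 56.4, 49.8 and 52.7 CPM against 77.7, 85.4 and 80.5, and Ifnar2 at 14.9, 15.7 and 18.6 against 27.2, 25.4 and 32.1. Both type I chains were higher in every day 21 mouse, by 0.62 ± 0.10 and 0.79 ± 0.15 on the log2 scale (edgeR adjusted p = 0.00081 and 0.0017). The Ifnar1 change lay close to the fold limit of 1.5 and was no longer called without day 0 replicate 2 (0.57) or without day 21 replicate 2 (0.58). Jak1 (ENSMUSG00000028530.14), the kinase that all of these receptors use, was at 233, 173 and 198 CPM against 224, 189 and 214. The groups overlapped, and the 95% interval of the log2 difference ran from -0.24 to 0.35. Jak2, which serves the interferon gamma receptor, was at 39.7, 26.5 and 41.7 CPM against 45.3, 49.8 and 46.5 (interval 0.03 to 0.76, edgeR adjusted p = 0.072). Its groups did not overlap, though its closest mice were 41.7 and 45.3. Tyk2, a Janus kinase outside the members, was called higher and is named after its values were seen. It was at 21.1, 23.3 and 23.8 CPM against 39, 37.9 and 33.3 (0.69 ± 0.12, edgeR adjusted p = 0.0012). None of the 6 members in this role held the ISRE letters in its window. Ifnar2, Ifnar1 and Ifngr2 lie within 193 kb on chromosome 16, from 91372783 to 91565623.

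Among the transcription factors Irf7 stood apart in size. Irf7 (ENSMUSG00000025498.15), which drives the amplifying wave of type I interferon production, was at 18.8, 20.4 and 16 CPM at day 0 and at 431, 296 and 294 at day 21. Every day 21 mouse lay far above every control, an 18.5-fold difference (log2 4.21 ± 0.19, edgeR adjusted p = 5.3e-07), and Irf7 ranked 139 of the 16592 genes tested by log2 fold change. Its window held neither element in the letters searched.

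The other factors moved less. Stat2 (ENSMUSG00000040033.16), whose ISRE is printed above, was at 21.1, 16.7 and 16.1 CPM against 80, 56.1 and 57.3 (log2 1.84 ± 0.17, edgeR adjusted p = 1.9e-05). Its DNA-binding partner Irf9 was at 33.4, 23.3 and 20.2 CPM against 87.7, 78.9 and 73.7 (1.64 ± 0.17, edgeR adjusted p = 4.2e-05). The partners of this complex were 3.59-fold and 3.12-fold higher, with no overlap between groups. Irf1, an early target of interferon gamma, was at 31.4, 24.1 and 21.1 CPM against 64.9, 59.8 and 53.3 (1.22 ± 0.16, edgeR adjusted p = 0.00014). Irf8, a factor of macrophages and dendritic cells, was at 18.8, 16.1 and 13.5 CPM against 38.2, 43.4 and 36.2 (1.28 ± 0.15, edgeR adjusted p = 7.5e-05). Neither overlapped between groups. Irf2, which competes with Irf1 for the same sites, was at 27.4, 25.1 and 29.8 CPM against 33.2, 33.6 and 31.2 (0.26 ± 0.12, edgeR adjusted p = 0.11). Irf5, a factor of the inflammatory response of myeloid cells, was at 37.2, 36.5 and 36.4 CPM against 45, 47.3 and 44.5 (0.31 ± 0.10, edgeR adjusted p = 0.031), which is 1.24-fold and under the fold limit. All day 21 mice were above all controls for both, but by little. Jak2, Irf2 and Irf5 were called higher when libraries were scaled by their size alone (0.78, 0.64 and 0.70), a scaling under which the median of all genes was 0.42 in place of 0.03.

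**Figure D2:**
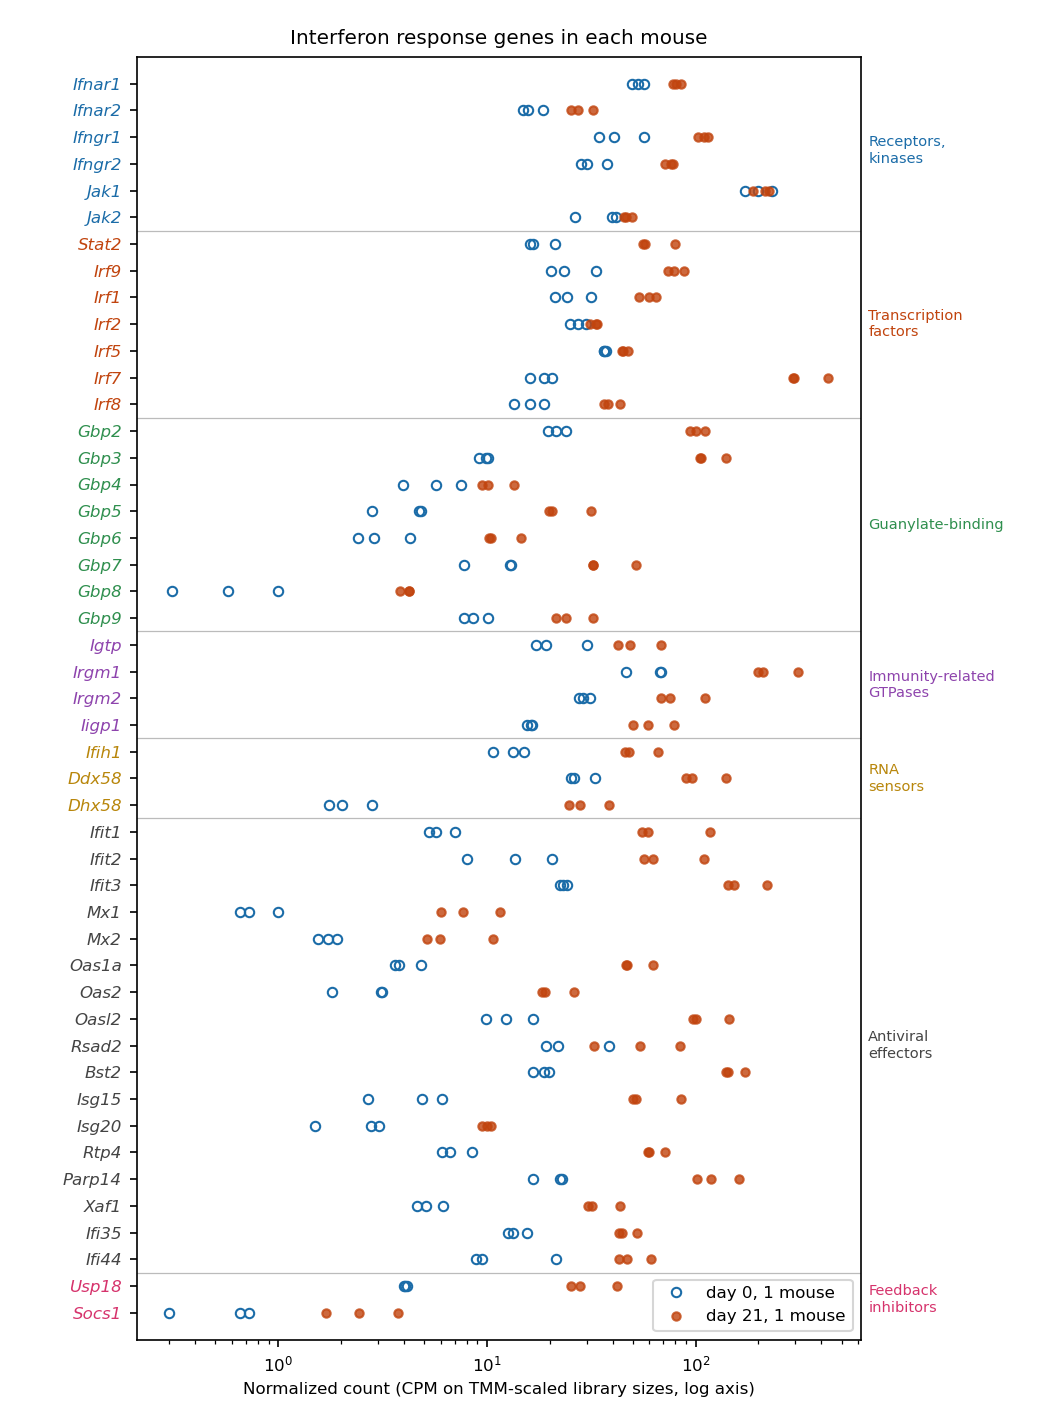
CPM of all 47 members, in rows by role, in each mouse on a log axis, with 1 open point per day 0 mouse and 1 filled point per day 21 mouse. Irf7 runs from 16 to 20.4 CPM at day 0 and from 294 to 431 at day 21, while the Jak1 points of both groups overlap.

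All 8 guanylate-binding proteins rose, with a median log2 fold change of 2.04 (0.95 to 3.58). These large GTPases gather on the membranes of intracellular bacteria and parasites and are classic targets of interferon gamma. Gbp3 (ENSMUSG00000028268.14), with a double ISRE just upstream of its start, was at 9.12, 9.89 and 10.1 CPM against 139, 106 and 105. That is 12-fold (log2 3.58 ± 0.15, edgeR adjusted p = 3.9e-07), and the controls were tightly grouped. Gbp2 was at 19.6, 23.8 and 21.4 CPM against 111, 100 and 94 (2.23 ± 0.12, edgeR adjusted p = 1.3e-06). Gbp5, which promotes inflammasome assembly, was at 4.71, 2.8 and 4.84 CPM against 31.5, 19.8 and 20.5 (2.55 ± 0.26, edgeR adjusted p = 3.5e-05). Neither overlapped. Gbp8 was low throughout, with 10, 7 and 3 counts at day 0 and 54, 71 and 69 at day 21 (2.68 ± 0.40, edgeR adjusted p = 0.0004), so that its day 0 level was near the limit of detection. Gbp6, Gbp7 and Gbp9 changed by 1.85, 1.79 and 1.56. Gbp4 changed least (0.95 ± 0.26, edgeR adjusted p = 0.012) and was no longer called without day 21 replicate 1 (0.79, edgeR adjusted p = 0.057). It is named here after its values were seen.

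The guanylate-binding proteins sit in arrays on 2 chromosomes. Gbp5, Gbp7, Gbp3 and Gbp2 span 144 kb of chromosome 3 (142493978 to 142638008) with log2 fold changes of 1.79 to 3.58, and Gbp8, Gbp9, Gbp4 and Gbp6 span 280 kb of chromosome 5 (105014150 to 105293698) with 0.95 to 2.68. Members of such arrays share sequence, and reads can be assigned to the wrong copy. Of the 50-base words of Gbp6, 59.7% also occurred in some other gene and 51.5% in Gm43302, which had 0 counts in all mice. Gm43302 is annotated over 29% of the Gbp6 exon bases on the same strand, so this share is not only that of a separate copy. For Gbp8, Gbp4 and Gbp7 the share found in any other gene was 18.2%, 12.8% and 12.8%. Gm43802 likewise overlaps Gbp7 on the same strand, in 11.3% of the Gbp7 exon bases.

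The 4 immunity-related GTPases, which act against vacuolar pathogens, rose by a median of 1.75 on the log2 scale. Irgm1 (ENSMUSG00000046879.7), a regulator of the other GTPases of this family and of autophagy, was at 67.4, 68.2 and 46.6 CPM against 309, 199 and 210 (1.98 ± 0.20, edgeR adjusted p = 3.2e-05). Iigp1, an effector that coats the vacuole, was at 16.5, 15.6 and 16.3 CPM against 78.5, 50 and 59.1 (1.95 ± 0.17, edgeR adjusted p = 1.3e-05). In both the day 21 mice lay above the controls, and replicate 1 was the highest of them. Irgm2, a regulator like Irgm1, was at 28.7, 31.1 and 27.7 CPM against 111, 68.5 and 75.2 (1.54 ± 0.18, edgeR adjusted p = 6.9e-05). Igtp, another of the regulators, was at 17.1, 30.2 and 19.1 CPM against 67.9, 48.7 and 42.6 (1.25 ± 0.23, edgeR adjusted p = 0.0015). These genes on chromosome 11 (58199556 to 58222782), whose annotations overlap, carry almost the same GAS and ISRE stretch, shown above. Of the 50-base words of Igtp 12.3% occurred in Irgm2, and of those of Irgm2 6.29% occurred in Igtp. The annotations have 162 exon bases in common on the same strand, so part of these words may come from the overlap.

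The 3 RNA sensors all rose. Dhx58 (ENSMUSG00000017830.15), which encodes the regulatory helicase LGP2, was at 2.01, 2.8 and 1.75 CPM against 38.4, 24.8 and 28, or 13.6-fold (log2 3.77 ± 0.24, edgeR adjusted p = 2.5e-06). Ifih1, encoding the long-RNA sensor MDA5, was at 13.3, 10.7 and 15 CPM against 65.8, 46.1 and 48.1 (2.04 ± 0.18, edgeR adjusted p = 1.4e-05). Ddx58, encoding RIG-I, was at 33, 25.4 and 26.1 CPM against 139, 89.8 and 95.6 (1.94 ± 0.18, edgeR adjusted p = 2e-05). No group overlapped with another, and day 21 replicate 1 was the highest in each.

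All 17 antiviral effectors rose, with a median log2 fold change of 2.88. Isg15 (ENSMUSG00000035692.6), a ubiquitin-like protein that is attached to other proteins, was at 6.12, 4.86 and 2.68 CPM against 85.5, 52 and 50.3, or 13.7-fold (log2 3.77 ± 0.29, edgeR adjusted p = 7.1e-06). Ifit1 (ENSMUSG00000034459.8), which binds viral RNA that lacks a host cap, was at 7.02, 5.28 and 5.67 CPM against 117, 58.8 and 55.6, or 12.9-fold (3.69 ± 0.30, edgeR adjusted p = 9.5e-06). Both had the highest level in day 21 replicate 1, and every control lay below every day 21 mouse. Oas1a (ENSMUSG00000052776.10), which makes the signal that activates RNase L, was at 3.81, 3.63 and 4.84 CPM against 62.4, 46.4 and 46.8, or 12.7-fold (3.67 ± 0.19, edgeR adjusted p = 9.9e-07). Of its 50-base words 57.6% also occurred in Oas1g, which is no member and was higher too (4.74), so the values of these copies are uncertain. Mx1, of the family of dynamin-like GTPases, was at 1, 0.659 and 0.721 CPM against 11.5, 7.64 and 6 (3.39 ± 0.36, edgeR adjusted p = 4.2e-05). It was low in the controls, and its groups stood well apart.

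The other effectors ran from 3.16 down to 1.10. Rtp4 changed by 3.16, Oasl2 by 3.15, Bst2 (tetherin, which holds budding virions at the cell surface) by 3.05 and Oas2 by 2.97. Ifit3 changed by 2.88, Xaf1 by 2.73, Parp14 by 2.63, Ifit2 by 2.45, Mx2 by 2.06 and Isg20, an exonuclease, by 2.01. Ifi44 and Ifi35 changed by 1.94 and 1.74. Ifit2, Ifit3 and Ifit1 form an array of 99.3 kb on chromosome 19 (34550694 to 34650009), and 51.2% of the 50-base words of Ifit3 occurred in Ifit3b, which also rose (2.79). For Rtp4 and Ifi35 the share was 13.6% and 10.7%, the latter with Gm11626 on the other strand, which had a log2 fold change of 1.73 and was called higher. The strand setting of the counting was not given in the sources used here. Without the 9 members that shared more than 10% of their words, 34 members were called higher and their median was 1.99, an alternative chosen after seeing the data.

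Rsad2, which encodes viperin, was the exception among the effectors and is named after its values were seen. It was at 19.2, 21.8 and 38.4 CPM at day 0 and at 84.1, 32.5 and 54 at day 21. Control replicate 3 lay above day 21 replicate 2, so the groups overlapped (log2 1.10 ± 0.34, edgeR adjusted p = 0.022). An exact two-sided permutation test of the CPM gave p = 0.2, where 0.1 is the smallest that 3 against 3 mice allow. The call was lost in DESeq2 (1.07, DESeq2 adjusted p = 0.066), and without day 0 replicate 1 (0.90), day 0 replicate 2 (0.98) or day 21 replicate 1 (0.71), with edgeR adjusted p of 0.056, 0.088 and 0.091.

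Both feedback inhibitors rose. Usp18 (ENSMUSG00000030107.10), which removes ISG15 from proteins and blocks Ifnar2, was at 4.01, 4.04 and 4.12 CPM against 41.9, 25.2 and 27.8, or 7.78-fold (log2 2.96 ± 0.22, edgeR adjusted p = 5.7e-06). Socs1, which inhibits the Janus kinases, had 3, 8 and 7 counts against 24, 63 and 40 (2.21 ± 0.48, edgeR adjusted p = 0.0037). The groups did not overlap in either gene. At these counts the size of the Socs1 change is loosely set, and it was the lowest member per length at day 21.

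Levels can be compared between genes only per length, as RPKM (CPM divided by the length in kilobases of all annotated exons of a gene, merged). On that scale the order of the members changed. At day 0 Jak1 was highest (27.8 ± 4.14 RPKM, SD, n = 3), followed by Bst2 (20.3 ± 1.79), Ifngr1 (15.4 ± 3.97) and Ifit3 (13.3 ± 0.562). Jak1 lay further from Bst2, and Bst2 from Ifngr1, than either SD, whereas Ifngr1 and Ifit3 lay closer together than that. At day 21 Bst2 was highest (168 ± 20.8 RPKM), followed by Ifit3 (98.2 ± 23.8), Irf7 (90.2 ± 20.7) and Isg15 (82.8 ± 26.2). Those last 3 did not differ beyond their spread, while Irgm1 (41.2 ± 10.4) and Gbp2 (40.4 ± 3.4) came next and lay close together. The level of Ifit3 depends on how the reads it shares with Ifit3b were assigned. Irf7 had been at 4.87 RPKM and Isg15 at 6.02 at day 0. At the low end of day 21 stood Gbp4 (1.47), Gbp8 (1.19) and Socs1 (0.906).

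**Figure D3:**
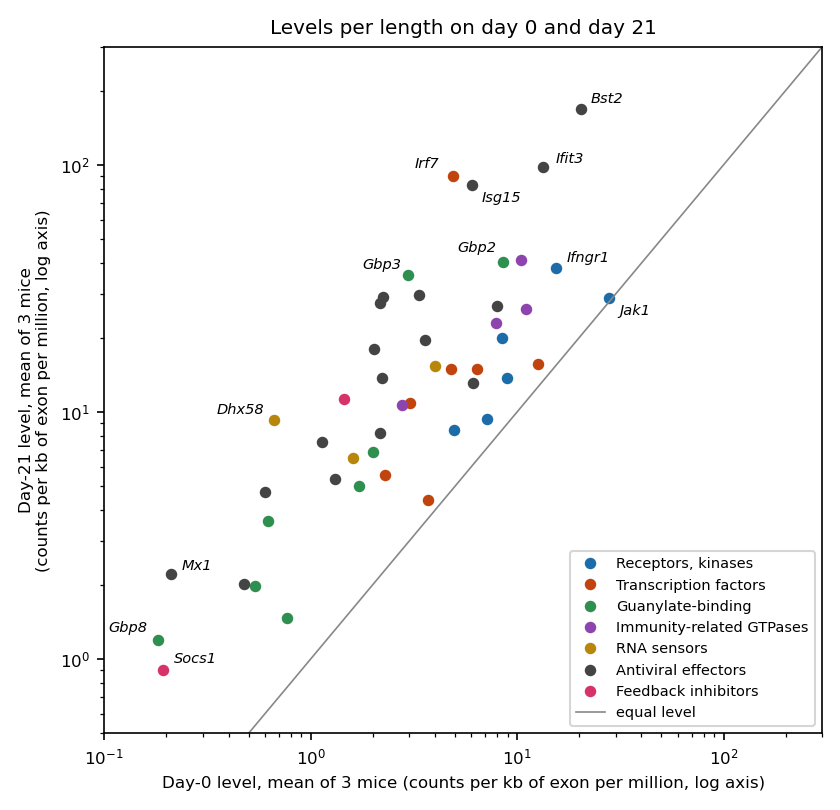
Mean RPKM of each member at day 21 against day 0, on log axes, coloured by role, with a line of equal levels. Jak1 (27.8 and 28.9 RPKM) sits on the line, and Bst2, Ifit3, Irf7 and Isg15 are the highest 4 at day 21.

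Members with and without an ISRE in the window differed in level of change as a description only. The 18 with one had a median log2 fold change of 2.12 and the 17 without one 1.31. By role, the letters occurred in 0 of 6 receptors and kinases, 2 of 7 transcription factors (Stat2 and Irf2), all 4 guanylate-binding proteins with a window, all 3 GTPases with a window, both RNA sensors with a window and 6 of 12 effectors. Irf2 held an ISRE and was not called, while Irf7, Oasl2 and Xaf1 held neither element and were among the members called higher. The GAS split ran the other way, with a median of 1.64 for the 14 members that held it and 1.98 for the 21 that did not.

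The interferon genes themselves had at most 3 counts in any library. Of 21 interferon genes of types I, II and III, 19 had 0 counts in all 6 mice, which allows up to 0.179 to 0.309 CPM per library for counting error alone. Ifng, the gene for interferon gamma, had 0 counts in every control and 2, 1 and 3 at day 21. Ifnz had 2 counts in day 21 replicate 1 and 0 in the other mice. At this depth no difference in the ligands could be tested.

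Pathway genes outside the members moved in the same direction where they were called. Of 113 such genes counted, 88 were tested, and 71 were called higher and 0 lower by edgeR's test, with a median log2 fold change of 1.83. At an unadjusted p under 0.05 there were 2 lower, and DESeq2 and limma-voom called 0 lower. Among other receptors, kinases and factors 7 of 12 were higher (median 0.74), among adaptors of nucleic acid sensing 6 of 10 (median 1.09) and among other induced genes 58 of 66 (median 2.02). The largest changes were those of Oas1g (0.602, 0.247 and 0.721 CPM against 13.5, 15.9 and 11.8, log2 4.74), and of Ddx60, Zbp1 (the Z-nucleic acid sensor) and Oasl1 (3.75, 3.67 and 3.56). The receptor and adaptor groups thus showed smaller medians than the induced genes. Among the members the receptors and kinases also had the smallest median of any role (0.70), whereas the RNA sensors were at 2.04. These differences were not tested.

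The day 21 mice differed among themselves in these genes. Replicate 1 was the highest of the 3 in 36 of 47 members (76.6%), against 36.3% of all genes tested and 25.5% of the genes called higher. With 0.25 CPM added to each value, its level was a median of 1.4-fold the mean of the other day 21 mice, where the median over all genes was 1. The excess was 1.46-fold for the effectors (16 of 17 highest), 1.5-fold for the immunity-related GTPases (4 of 4), 1.45-fold for the RNA sensors (3 of 3) and 1.38-fold for the guanylate-binding proteins (7 of 8). It was 1.15-fold for the transcription factors (4 of 7 highest) and 0.945-fold for the receptors and kinases (1 of 6). The feedback inhibitors (1 of 2 highest, median 0.956-fold) went opposite ways, with log2 ratios of 0.66 for Usp18 and -0.79 for Socs1. Macrophage markers stood at 0.928-fold in the same mouse. Without it the members' median log2 fold change was 1.76. The median coefficient of variation of the members was 20.6% at day 21, against 10.4% for all genes, and 16.7% and 16.4% at day 0.

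**Figure D4:**
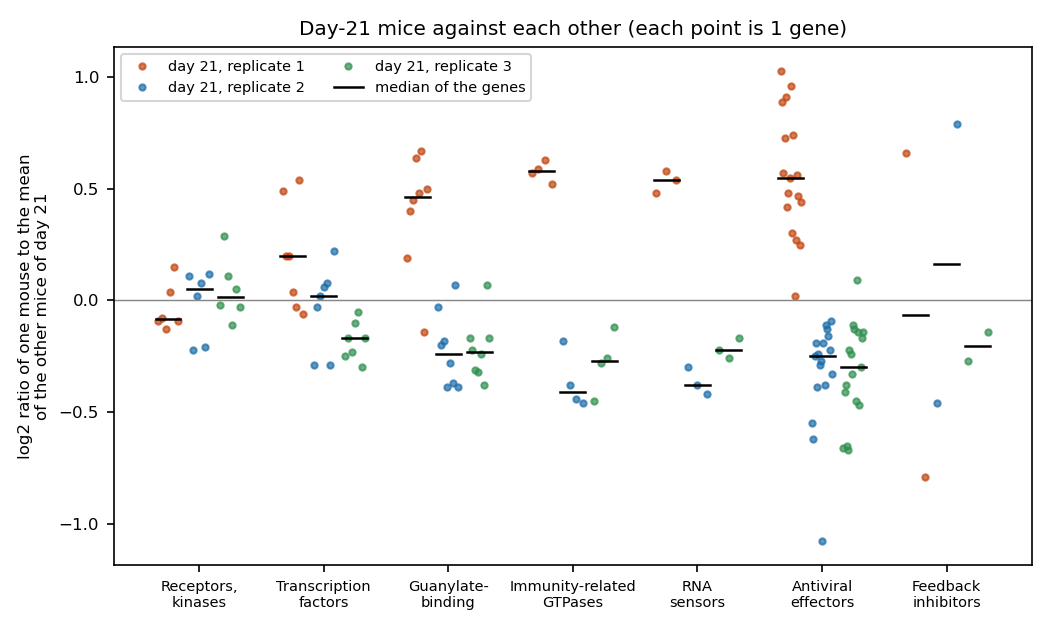
Log2 ratio of each member's CPM in each day 21 mouse to the mean of the other day 21 mice (pseudocount 0.25 CPM), by role, with 1 point per gene and a line at the median of each mouse's genes in a role. Replicate 1 lies above the other mice in the effectors (median 0.55) and near them in the receptors and kinases (median -0.08).

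Among the cell type markers, those of macrophages and T cells rose at day 21, as the members did. All 8 macrophage markers were called higher, and their summed level went from 141 to 179 CPM in the controls to 767 to 902 at day 21, with day 21 replicate 1 the lowest of its group at 767. All 6 T cell markers tested rose. The NK cell markers Ncr1 and Klrb1c had 0 to 2 and 0 to 6 counts and were not tested, and the whole T and NK list summed to 4.21 to 9.81 CPM and 25 to 27.6 CPM. Of 5 dendritic cell markers tested 1 rose, Ccr7 (0.495 to 0.602 against 1.2 to 5.73 CPM), and the 6 listed summed to 5.44 to 7.42 and 10.5 to 18.6 CPM. The B cell markers summed to 0.928 to 2.97 and 2.21 to 4.06 CPM, where the 1 tested was not called. The 7 proximal tubule markers fell, from a sum of 10937 to 12382 CPM to one of 2132 to 2596. Of 5 distal nephron markers 4 were called lower, and of 4 podocyte markers 3 were. Of the neutrophil markers S100a8 and S100a9 fell (log2 -1.97 and -1.99) and Csf3r rose (1.19), and the list summed to 16 to 26 and 11.3 to 12.4 CPM. Of the 6 endothelial markers 1, Kdr, fell (-1.33), and they summed to 369 to 412 and 207 to 332 CPM. The 5 red cell genes fell from 227 to 524 CPM to 33.8 to 77.5. No marker was at 0 in all mice, though 1 T and NK cell marker and 2 B cell markers had at most 3 counts in each. The part of these cells in the interferon result was not tested.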

How the data were processed

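Kidney mRNA of 3 day 0 and 3 day 21 mice was analysed. The authors deposited raw read counts per gene, and the submitters' processing notes name TopHat and mm10. The counting program and its strand setting are not given in the sources used here. All 55450 identifiers matched GENCODE mouse release 21 with their version, which gave symbols and exon lengths. Genes were kept with edgeR's filter (minimum count 10, minimum total 15), scaled by TMM and tested with glmQLFit and glmQLFTest over all 16592 genes (R 4.3.3, edgeR 4.0.16, limma 3.58.1). RPKM, CPM and fold changes were computed here. DESeq2 1.42.0, limma-voom, 3 other scalings, filters and thresholds, and each mouse left out were alternatives. The procedure was also run on simulated counts with far fewer changed genes than were called here, and the outcome is not reported. Motifs were searched in Python 3.11.15. The members, lists and tests were chosen with earlier results of these data known. Named genes were every receptor, kinase, transcription factor, sensor and inhibitor and, in other roles, the 4 with the largest change, and likewise the 4 largest among other pathway genes and any ligand with counts. The labels call the libraries separate samples, so p-values measure the spread between these, and detection limits cover counting error only.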

Additional observations from a re-analysis of the deposited data

How the results depend on the processing

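Members called higher numbered 41 to 46 under the alternative scalings, filters, tools and left-out mice, 39 with an adjusted p below 0.01 and more than 2-fold change, and 44 with an adjusted p below 0.05 whatever the fold, beside 43, and no member was called lower. Under library size alone the members' median rose to 2.36 and that of all genes to 0.42, a difference of 1.94 beside 1.95, and the share of all calls that were higher went from 55.8% to 81.7%. At the stricter threshold 3172 genes were called over the whole table, beside 5821, and Ifnar1, Ifnar2, Gbp4 and Rsad2 were not called. Leaving out each mouse in turn gave 5128 to 5920 calls, members' medians of 1.76 to 2.06, 41 to 43 members called higher and 68 to 71 other pathway genes. With a mouse left out Jak1 ranged from -0.04 (without day 0 replicate 2, the only reversal) to 0.15 (without day 0 replicate 1) and was called in neither, beside 0.44 under library size alone, also under the fold limit. Whether the replicate numbers pair the mice was not settled. The deviations of same-numbered mice from their group means correlated at -0.019, 0.165 and 0.0896, and those of differently numbered mice at -0.181 to 0.116. With 3 mice a group such deviations depend on each other, so these values cannot decide it. With the replicate block 5758 genes were called, the members' median was 2.01, and 43 members and 71 other pathway genes were called higher. Of the members' log2 fold changes over 16 settings, 734 kept their side of the threshold and their direction, 11 lost a call, 4 gained one, 1 reversed and 2 (at the higher count filter) had no value. Precision is limited by 3 mice a group and, for Gbp8, Socs1 and the interferon genes, by few counts.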
